A study of Arabidopsis thaliana with 8 samples.

Results

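The transcriptome of wild-type Arabidopsis thaliana root tips treated with abscisic acid (ABA) was set against that of untreated root tips. A gene was a member of the comparison where it had at least 1 FPKM in either group, and 18841 of 33557 genes in the table did. FPKM is a fragment count divided by transcript length and by the size of the library. The treated group, Col+ABA, and the untreated group, Col-ABA, were plants labelled wild type, of the Columbia background. Seedlings stood upright on 1/2 MS medium in long days (16 h light, 8 h dark, 22 °C), and after 7 days the treated ones received 100 µM ABA for 3 h. RNA came from about 1 cm of root behind and including the tip. Each group had 2 libraries of the 8 in the series, the second of which is called a repeat; whether its roots were grown separately is not stated. The table gives 1 value per group, so no spread between libraries stands beside any value. The other libraries came from bin2-1 and bzr1-D/bin2-1 mutants, and the labels do not say whether those received ABA.

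ABA is a hormone made under drought, salt and cold, and in roots it slows growth. It binds receptors of the PYR/PYL family, which then hold and block protein phosphatases of clade A of the PP2C family. That frees SnRK2 kinases to phosphorylate bZIP transcription factors, which bind ABA-responsive elements in promoters and switch on protective genes.

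Of the members, 2992 rose with ABA and 1859 fell. A gene is said to rise or fall where its q in the authors' deposited table was under 0.05. The test behind that q is not named, so it speaks for these libraries only. Of the 18779 members with a p below 1, the raised ones were 15.9% and the lowered ones 9.9%, together 25.8%. The counts of lists and families below are to be read beside these shares. The lists were chosen with earlier results of these data known, so their counts are descriptions, not tests. At a change of at least 2-fold the shares were 7.96% raised and 3.12% lowered, and at least 4-fold they were 2.93% (550 genes) and 0.666% (125 genes). Fold changes are log2 ratios of ABA over untreated, computed with 0.1 added to each value, so they understate the change of genes with low values. The median log2 ratio of the members was 0.012. A number alone in brackets after the levels of a gene is its log2 ratio. In bulk root tips, fewer cells of a type and less RNA per cell cannot be told apart. A gene that reached 1 FPKM in one group only could only stand higher in that group: 646 members stood under 1 FPKM untreated, of which 313 rose, and 451 stood under 1 FPKM with ABA, of which 170 fell. The same limit holds for such genes in every list and family below, also where they are not named. Unless another q is printed, a gene named below as raised or lowered stood at 0.000385, the smallest q in the authors' deposited table, which 2592 members shared.

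**Figure D1:**
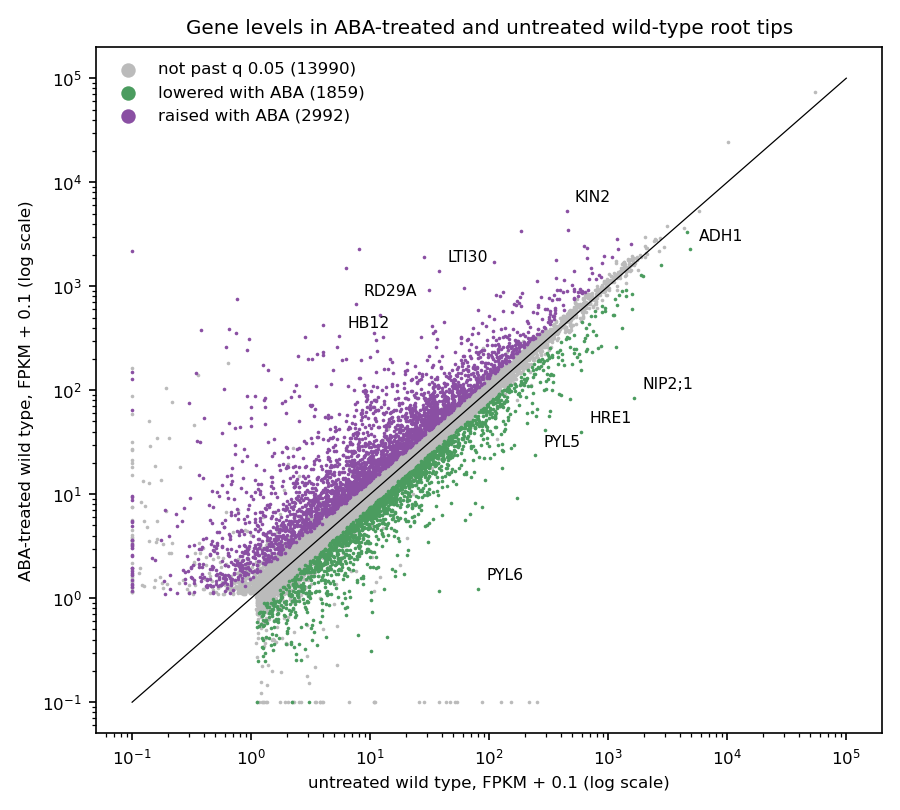
Level of each of the 18841 members with ABA (vertical, FPKM + 0.1, log scale) against untreated (horizontal, FPKM + 0.1, log scale), with 2992 raised genes in purple, 1859 lowered genes in green, the rest in grey, and the line of equal levels. KIN2 stood at 5316 FPKM with ABA and 446 FPKM untreated, and NIP2;1 at 84.4 FPKM with ABA and 1642 FPKM untreated.

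The share of genes that rose varied with the untreated level. It was 15.5% of 7835 members with 1 to 10 FPKM untreated, 14.5% of 8605 with 10 to 100, 13.4% of 1632 with 100 to 1000 and 3.25% of 123 above that. The share that fell was 9.36%, 10.4%, 13.1% and 14.6% over the same bins. The raised genes held 21.7% of the summed FPKM with ABA and 10.3% untreated, and the lowered genes 5.71% with ABA and 12.2% untreated. The 550 genes raised at least 4-fold held 6.11% with ABA and 0.714% untreated. The most abundant transcript of both groups, AT2G01021, held 6.34% with ABA and 5.47% untreated and missed the threshold (q = 0.442 in the authors' deposited table). The 10 largest gains alone held 2.43% with ABA and 0.369% untreated.

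The root label was checked against markers of the tissue. All 6 root hair markers, all 4 root cap markers and all 8 endodermis markers were members, and the quiescent centre gene WOX5 had 4.47 FPKM with ABA and 1.82 FPKM untreated (q = 0.0032 in the authors' deposited table). The 12 green-tissue genes summed to 43.0 FPKM with ABA (0.00374% of the FPKM of all genes) and 29.5 FPKM untreated (0.00295%), and 4 of them were under 1 FPKM in both groups. No listed marker was at 0 in both groups. Marker counts stand beside 15.9% raised and 9.9% lowered over all members. Of 8 quiescent centre and stem cell markers 2 rose and 1 fell, and of 6 root hair markers 1 fell, RSL4, a regulator of hair growth, with 3.17 FPKM with ABA and 6.22 FPKM untreated. Both non-hair markers fell (GL2, 10.7 FPKM with ABA and 17.1 FPKM untreated, q = 0.00612 in the authors' deposited table; WER, 14.5 FPKM with ABA and 20.7 FPKM untreated, q = 0.0284). The 4 root cap markers summed to 22.6 FPKM with ABA and 29.3 FPKM untreated, and 1 fell. The 2 cortex markers summed to 62.2 FPKM with ABA and 94.4 FPKM untreated, and 1 fell. The FPKM of all genes summed to 1148755 with ABA and 1001422 untreated, and higher marker sums are given with their share of that total. The 8 endodermis markers held 0.0401% with ABA and 0.0392% untreated (460.5 FPKM with ABA, 392 FPKM untreated), and the 9 stele and xylem markers held 0.0183% in both groups (211 FPKM with ABA, 183 FPKM untreated). The 6 phloem markers held 0.00977% with ABA and 0.00793% untreated (112 FPKM with ABA, 79.4 FPKM untreated), and the sucrose transporter SUC2 had 69.7 FPKM with ABA and 33.9 FPKM untreated. SUC2 differed by 35.8 FPKM, more than the sum of all 6 did. APL (q = 0.0152 in the authors' deposited table) and OPS (q = 0.0425) fell. Of xylem members 1 rose and 1 fell, and of phloem members 1 rose and 2 fell. In the endodermis list 2 rose and 1 fell, and the largest change was of the Casparian strip gene CASP5, with 14.3 FPKM with ABA and 3.47 FPKM untreated. Of the 10 reference genes 9 missed the threshold and UBC9 fell (log2 ratio -0.59, q = 0.000736 in the authors' deposited table). The part of cell composition in the results below was not tested.

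The promoters of genes that rose held the ABA-responsive element more often than those of other genes. The element was searched as ACGTGGC or ACGTGTC on both strands, from 250 bases before to 50 bases after the gene start in the RefSeq annotation of TAIR10.1. It lay in 28.7% of 533 promoters of genes raised at least 4-fold, 20.0% of 911 raised 2- to 4-fold and 18.3% of 1461 raised by less. The share was 7.44% of 13570 promoters of genes that missed the threshold. Among genes that fell it was 4.13% of 1258 lowered under 2-fold, 2.93% of 443 lowered 2- to 4-fold and 2.48% of 121 lowered at least 4-fold. All 27443 protein-coding genes held it in 7.64%, and 18297 members were among them. No test was made of these shares. At least 2 words lay in 12.2% of the promoters of genes raised at least 4-fold, 1.19% of those that missed the threshold and 1.55% of all protein-coding genes. The 2 strands of 1 overlapping run count as 2 words. By 50-base windows from 500 bases before the start, the share was highest between 100 and 50 bases before it both in genes raised at least 4-fold (9.76% of promoters) and in genes that missed the threshold (2.14%). In the 5 windows beyond 250 bases it was 1.31% to 3.19% in genes raised at least 4-fold and 0.479% to 0.641% in genes that missed the threshold.

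The promoters below are shown because they run from genes with several words to the receptor gene that fell most. Each is the 250 bases before the gene start in TAIR10.1, read 5′ to 3′ along the gene, with the element in capitals on either strand (GCCACGT and GACACGT are its reverse strand). They lie at chr5:21236771-21237020 on the plus strand for RD29B, chr5:2090431-2090680 on the minus strand for LEA4-5, chr5:26519448-26519697 on the minus strand for RAB18, chr2:15207637-15207886 on the minus strand for ABI5, chr3:3585851-3586100 on the minus strand for PP2CA and chr2:16846195-16846444 on the minus strand for PYL6.
RD29B: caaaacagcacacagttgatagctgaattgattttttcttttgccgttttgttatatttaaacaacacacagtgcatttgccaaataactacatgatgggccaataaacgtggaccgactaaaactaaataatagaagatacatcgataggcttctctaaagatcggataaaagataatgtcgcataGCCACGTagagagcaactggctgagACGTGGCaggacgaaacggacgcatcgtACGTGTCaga
LEA4-5: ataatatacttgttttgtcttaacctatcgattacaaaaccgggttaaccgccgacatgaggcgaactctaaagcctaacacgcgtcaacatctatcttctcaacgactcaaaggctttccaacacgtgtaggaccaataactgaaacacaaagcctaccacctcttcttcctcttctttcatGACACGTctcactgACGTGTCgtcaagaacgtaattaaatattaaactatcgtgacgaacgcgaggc
RAB18: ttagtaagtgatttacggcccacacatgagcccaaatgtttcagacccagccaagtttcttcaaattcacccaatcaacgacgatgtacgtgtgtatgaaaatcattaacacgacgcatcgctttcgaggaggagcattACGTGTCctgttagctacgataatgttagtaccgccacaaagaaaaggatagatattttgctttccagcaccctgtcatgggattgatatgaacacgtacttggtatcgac
ABI5: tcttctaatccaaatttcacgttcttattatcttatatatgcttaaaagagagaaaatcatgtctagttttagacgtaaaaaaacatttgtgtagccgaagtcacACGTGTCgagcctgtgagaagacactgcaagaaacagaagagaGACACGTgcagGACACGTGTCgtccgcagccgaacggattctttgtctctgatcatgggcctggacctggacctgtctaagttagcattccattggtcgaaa
PP2CA: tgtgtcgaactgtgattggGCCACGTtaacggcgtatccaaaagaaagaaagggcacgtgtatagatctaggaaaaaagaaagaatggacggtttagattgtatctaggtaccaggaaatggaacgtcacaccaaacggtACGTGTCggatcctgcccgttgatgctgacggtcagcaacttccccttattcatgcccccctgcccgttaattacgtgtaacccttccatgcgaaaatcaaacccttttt
PYL6: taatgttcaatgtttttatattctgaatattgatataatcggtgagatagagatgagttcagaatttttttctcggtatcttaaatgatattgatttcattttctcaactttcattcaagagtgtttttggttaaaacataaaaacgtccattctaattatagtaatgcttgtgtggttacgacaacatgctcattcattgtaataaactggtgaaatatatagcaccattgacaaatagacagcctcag
RD29B (AT5G52300), a desiccation-responsive gene long used as an ABA reporter, had words beginning 63, 38 and 10 bases before the start. It had 377 FPKM with ABA and 0.278 FPKM untreated. LEA4-5, a late embryogenesis abundant gene, had words at 67 and 53 bases and 754 FPKM with ABA and 0.654 FPKM untreated. The dehydrin RAB18 had 1 word, at 111 bases, and the phosphatase gene PP2CA had words at 231 and 110 bases. In ABI5 the words at 91 and 88 bases are the 2 strands of 1 overlapping run, so its 4 words are 3 places. PYL6 had no word in this window. By list, 14 of 28 LEA and dehydrin promoters held a word, 7 of 19 DREB, CBF and related ERF, 3 of 9 phosphatase, 2 of 14 receptor, 3 of 24 suberin, none of 17 HD-Zip class I and none of 24 nitrate, ammonium and phosphate promoters. RD29A, KIN1, HB7, HB12, ABI1, ABI2 and HAI1 rose and held none in this window. The word ACCGAC, bound by DREB and CBF factors and chosen after the data were seen, lay in 12.2% of promoters of genes raised at least 4-fold, 6.37% of those that missed the threshold and 5.70% of all protein-coding genes. The words are matched letters, not tested binding sites. The gene start is the annotated one, and other starts were not examined.

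**Figure D2:**
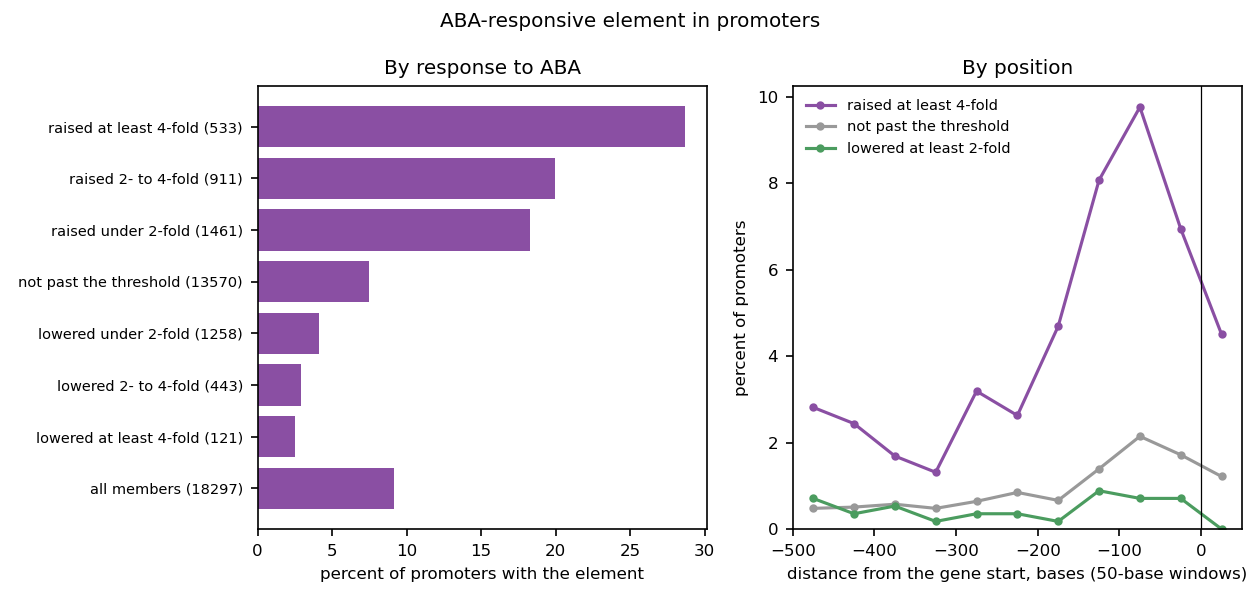
Left: percent of promoters with ACGTGGC or ACGTGTC within 250 bases before to 50 after the gene start, by response to ABA, with the number of promoters in brackets. Right: percent of promoters with a word beginning in each 50-base window, from 500 bases before the start. The line for genes raised at least 4-fold peaks at 9.76%, and that for genes that missed the threshold at 2.14%, both in the window 100 to 50 bases before the start.

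Most receptors of ABA fell, and most of the phosphatases they bind rose. Of 14 PYR/PYL receptors 10 were members, and 7 fell and 2 rose, with a median log2 ratio of -0.92. The largest fall was of PYL6, with 1.14 FPKM with ABA and 80.0 FPKM untreated, a log2 ratio of -6.02. PYL5 had 23.6 FPKM with ABA and 241 FPKM untreated (-3.35), and PYL4 had 41.5 FPKM with ABA and 296 FPKM untreated (-2.83). PYR1, the most abundant receptor transcript in both groups, had 175 FPKM with ABA and 427 FPKM untreated (-1.29). PYL8 had 38 FPKM with ABA and 106 FPKM untreated (-1.48). PYL1 and PYL2 fell less, by log2 ratios of -0.56 (q = 0.0137) and -0.53 (q = 0.0229) in the authors' deposited table. PYL7 and PYL9 went the other way, with 13 FPKM with ABA and 2.6 FPKM untreated for PYL7 and 42.8 FPKM with ABA and 25 FPKM untreated for PYL9. PYL3 had 2.27 FPKM with ABA and 1.96 FPKM untreated and missed the threshold (q = 0.751 in the authors' deposited table). Summed over the members and non-members of the list, receptor transcripts came to 368 FPKM with ABA and 1225 FPKM untreated.

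All 9 clade A PP2C phosphatases were members, 7 rose and none fell. Their median log2 ratio was 4.68, and they summed to 1063 FPKM with ABA and 51.1 FPKM untreated. HAI1, HAI2, HAI3 and AHG1 stood under 1 FPKM untreated and so could only stand higher with ABA. HAI1 had 311 FPKM with ABA and 0.853 FPKM untreated (8.35). ABI2 had 86.4 FPKM with ABA and 2.07 FPKM untreated (5.32) and PP2CA had 325 FPKM with ABA and 12.6 FPKM untreated (4.68). These phosphatases block the kinases of the pathway. ABI1 and HAB1 had log2 ratios of 3.24 and 3.23, and AHG1 and HAB2 of 2.46 and 1.9. HAI2 and HAI3 stood at 28.9 and 34.6 FPKM with ABA and at 0.0412 and 0.0603 FPKM untreated, and both missed the threshold (q = 0.194 each in the authors' deposited table).

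Of 10 SnRK2 kinases 4 rose and 1 fell, with a median log2 ratio of 0.19. SNRK2.7 had 14.5 FPKM with ABA and 1.36 FPKM untreated (3.33). OST1, the kinase best known from stomatal closure, had 103 FPKM with ABA and 53.3 FPKM untreated (0.95). SNRK2.2 and SNRK2.3, which act with OST1 in ABA signalling, had 60.8 and 63.6 FPKM with ABA and 72.4 and 54.2 FPKM untreated, and both missed the threshold (q = 0.245 and 0.297 in the authors' deposited table). SNRK2.9 and SNRK2.10 rose by log2 ratios of 1.44 and 1.26, and SNRK2.5 fell (18.3 FPKM with ABA, 31.2 FPKM untreated).

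Among bZIP factors of the pathway with ABI3 and ABI4, 8 of 12 were members, 7 rose and none fell, with a median log2 ratio of 2.00. The member ABI5 stood under 1 FPKM untreated and so could only stand higher with ABA. ABF3 had 322 FPKM with ABA and 26.9 FPKM untreated (3.58). ABI5, which arrests growth of germinating seedlings, had 8.94 FPKM with ABA and 0.937 FPKM untreated (3.12). GBF3 and ABF2 followed, with log2 ratios of 2.52 and 2.5. ABF1 and GBF2 stood at 160.5 and 219 FPKM with ABA and at 76.1 and 104 FPKM untreated, and both rose. ABI4 and BZIP15 were listed at 0 in both groups, and ABI3 had 0.0150 FPKM with ABA and was listed at 0 untreated.

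**Figure D3:**
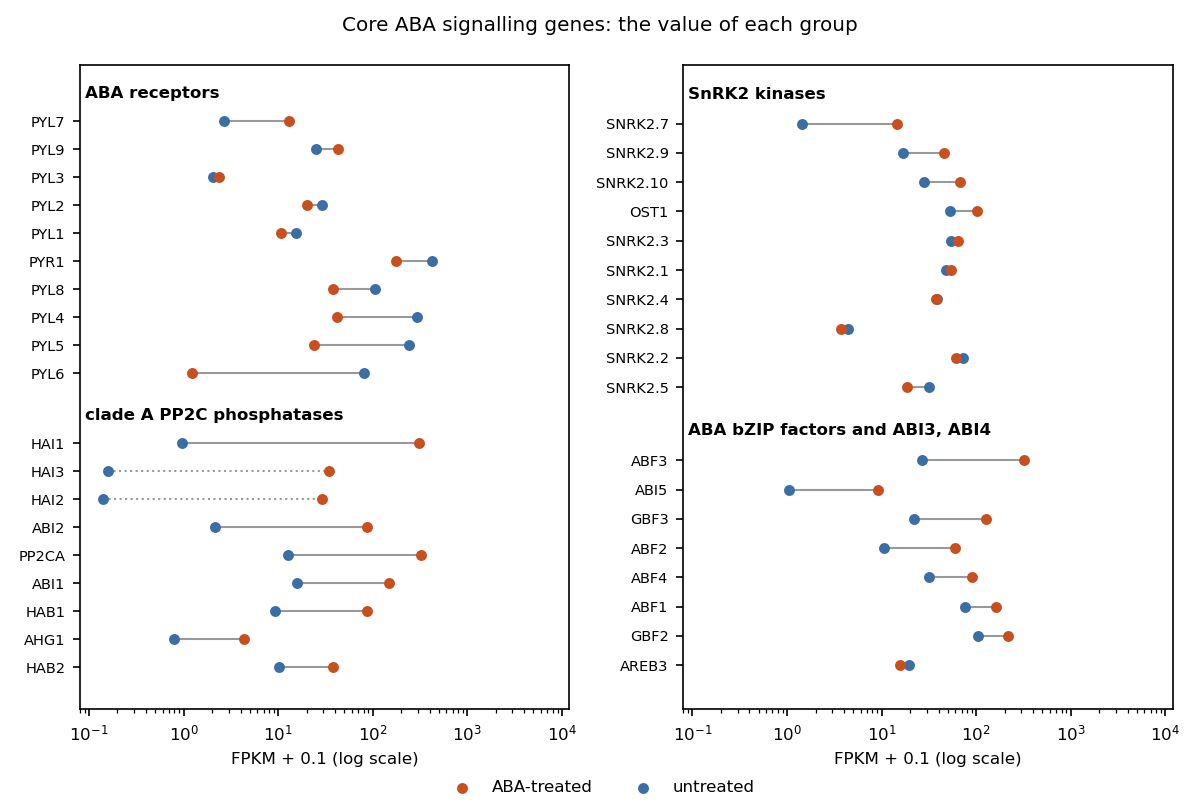
Level of each core ABA signalling gene with ABA (orange) and untreated (blue), in FPKM + 0.1 on a log scale. Solid lines join genes past q 0.05 and dotted lines those that missed it, and 7 of 10 receptors lie lower with ABA while 7 of 9 phosphatases and 7 of 8 factors rose.

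In a list of ABI5-binding proteins and ubiquitin ligases of the ABA pathway, more transcripts rose than fell. Of its 18 genes 10 rose and 3 fell, and not all of the ligases are known to act on ABI5. AFP1, which holds ABI5 in check, had 111 FPKM with ABA and 2.3 FPKM untreated (5.54), and AFP2 and AFP3 had log2 ratios of 3.28 and 2.86. The ligase PUB19 had 97.9 FPKM with ABA and 2.2 FPKM untreated (5.41). KEG, the ligase that marks ABI5 for breakdown, had 8.49 FPKM with ABA and 11.8 FPKM untreated and fell (log2 ratio -0.48, q = 0.0101 in the authors' deposited table).

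Most ABA synthesis genes rose, and so did a gene of ABA breakdown. Of 7 synthesis members 6 rose and none fell, with a median log2 ratio of 1.07. Among them NCED2, NCED3 and NCED9 stood under 1 FPKM untreated and so could only stand higher with ABA. NCED3, which catalyses the first committed step of stress-induced synthesis, had 43 FPKM with ABA and 0.631 FPKM untreated (5.88). ABA1, zeaxanthin epoxidase, had 34.5 FPKM with ABA and 4.49 FPKM untreated (2.92). ABA2 had 37.6 FPKM with ABA and 40.4 FPKM untreated and missed the threshold (q = 0.767 in the authors' deposited table). For breakdown and conjugation, 2 of 4 rose and 1 fell. UGT71B6, which rose, stood under 1 FPKM untreated and so could only stand higher with ABA. CYP707A1, the hydroxylase that inactivates ABA, had 109.6 FPKM with ABA and 6.46 FPKM untreated (4.06), and CYP707A3 had 25.9 FPKM with ABA and 20.6 FPKM untreated (q = 0.111 in the authors' deposited table). UGT71C5, which joins glucose to ABA, fell (14.4 FPKM with ABA, 21.6 FPKM untreated, q = 0.00107). The exporter ABCG25 had 59.9 FPKM with ABA and 14.6 FPKM untreated (2.02), and DTX50, a MATE exporter, had 9.43 FPKM with ABA and 2.4 FPKM untreated (1.93). In all, 3 of 4 transport members rose.

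Genes for proteins that protect dried or chilled cells were among the largest rises. Of 28 LEA and dehydrin genes 23 were members, 21 rose and none fell, with a median log2 ratio of 5.23. The members RAB18, XERO1, LEA4-1, LEA4-2, LEA4-5, EM1, EM6, ECP63, COR15A, COR15B and RD29B stood under 1 FPKM untreated. These could only stand higher with ABA, so part of that count and median was set by the filter. LEA7 had 1489 FPKM with ABA and 6.14 FPKM untreated (7.9), and RD29A had 676 FPKM with ABA and 7.43 FPKM untreated (6.49). KIN1 had 1891 FPKM with ABA and 28.2 FPKM untreated and its close relative KIN2 had 5316 FPKM with ABA and 446 FPKM untreated. KIN1 and KIN2 are neighbours of like sequence, and the sources used here do not give how reads were split between them. The dehydrin LTI30 had 1412 FPKM with ABA and 37.6 FPKM untreated, and COR47 had 3504 FPKM with ABA and 455 FPKM untreated. The gene AT3G02480, annotated as a LEA family protein and outside the list, had 2272 FPKM with ABA and 7.99 FPKM untreated (8.13), the largest rise among genes that reached 5 FPKM in each group. HIRD11, a dehydrin, had 3657 FPKM with ABA and 4363 FPKM untreated (q = 0.405 in the authors' deposited table), so an abundant member of the list was not called. Of the seed oil body and storage genes, which ABA induces in maturing seeds, 5 of 19 were members and none passed the threshold. RD20, a caleosin, stood at 12.7 FPKM with ABA and 0.0386 FPKM untreated (q = 0.446 in the authors' deposited table).

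Enzymes of compatible solutes rose in part. Of 26 genes of proline, raffinose and trehalose metabolism 14 rose and 1 fell, with a median log2 ratio of 0.82. GolS2, GolS3, GolS4, TPPE and TPPH stood under 1 FPKM untreated. These could only stand higher with ABA, so part of that count and median was set by the filter. GolS2, galactinol synthase of the raffinose path, had 246 FPKM with ABA and 0.819 FPKM untreated (8.07). P5CS1, the limiting enzyme of proline synthesis, had 159 FPKM with ABA and 12.8 FPKM untreated (3.62), whereas P5CS2 had 55.2 FPKM with ABA and 69.1 FPKM untreated (q = 0.1 in the authors' deposited table). The trehalose phosphatase TPPE had 7.8 FPKM with ABA and 0.342 FPKM untreated. DIN10, a raffinose synthase family gene, fell (526 FPKM with ABA, 1108 FPKM untreated).

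Among the 5 largest gains in FPKM, COR413-PM1, a cold-regulated membrane protein, had 3381 FPKM with ABA and 184 FPKM untreated. The chloroplast gene ATCG00220 had 2163 FPKM with ABA and was listed at 0 untreated, with a q of 0.00138 in the authors' deposited table. It is one of 65 members listed at 0 untreated, and 39 were listed at 0 with ABA. An exact 0 in a table without counts can be a failed estimate.

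Transcription factors of several families rose. HB7 and HB12, HD-Zip class I factors induced by drought, had 525 FPKM with ABA and 12 FPKM untreated for HB7 (5.44) and 330.0 FPKM with ABA and 5.36 FPKM untreated for HB12 (5.92). In all 4 of 14 class I members rose and 2 fell (28.6% raised and 14.3% lowered, against 15.9% and 9.9% over all members). HB40, which rose, and HB21, which missed the threshold, stood under 1 FPKM untreated and so could only stand higher with ABA. Of 12 stress NAC factors 10 rose and 1 fell, with a median log2 ratio of 1.91. NAC019 had 174 FPKM with ABA and 1.15 FPKM untreated (7.12), RD26 had 201 FPKM with ABA and 3.13 FPKM untreated (5.96), and NAC032 had 965 FPKM with ABA and 61.1 FPKM untreated. Of 20 stress MYB and zinc finger factors 13 rose and 3 fell. MYB20, MYB74, MYB96 and MYB102 stood under 1 FPKM untreated and so could only stand higher with ABA. MYB74 had 38.8 FPKM with ABA and 0.474 FPKM untreated (6.09), MYB112 and MYB20 rose by log2 ratios of 3.37 and 2.91, and the abundant zinc finger gene AZF2 had 513 FPKM with ABA and 98.9 FPKM untreated. A list of DREB and CBF factors, best known from cold and drought, also held the related ERF factors RAP2.6, RAP2.6L, ABR1, ERF4 and ERF7. Of its 18 members 11 rose and 2 fell. CBF1, CBF3, CBF4, DREB2B and ERF53 stood under 1 FPKM untreated and so could only stand higher with ABA. CBF1 had 14.3 FPKM with ABA and 0.294 FPKM untreated (5.19), CBF2 had 32.5 FPKM with ABA and 2.66 FPKM untreated (3.56), and RAP2.6 had 312 FPKM with ABA and 36.1 FPKM untreated. TINY went the other way, with 1.46 FPKM with ABA and 8.54 FPKM untreated (-2.47).

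Subunits of the CCAAT-binding factor NF-Y rose in 10 of 19 members and fell in 1. NF-YA5, NF-YA10 and NF-YB5 stood under 1 FPKM untreated and so could only stand higher with ABA. NF-YA6 stood under 1 FPKM with ABA and could only stand lower. NF-YA5 had a log2 ratio of 3.5 (q = 0.0355 in the authors' deposited table), with 5.22 FPKM with ABA and 0.369 FPKM untreated. NF-YB2 had 76.2 FPKM with ABA and 7.6 FPKM untreated (3.31) and NF-YC2 had 82.5 FPKM with ABA and 9.35 FPKM untreated (3.13), so members of all 3 subunit types rose. NF-YA2 fell (3.38 FPKM with ABA, 6.66 FPKM untreated). Heat shock factors gave a further pair: HSFA6B had 421 FPKM with ABA and 3.94 FPKM untreated (6.7), and HSFA6A had 32.1 FPKM with ABA and 0.253 FPKM untreated (6.51, q = 0.00959 in the authors' deposited table).

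**Figure D4:**
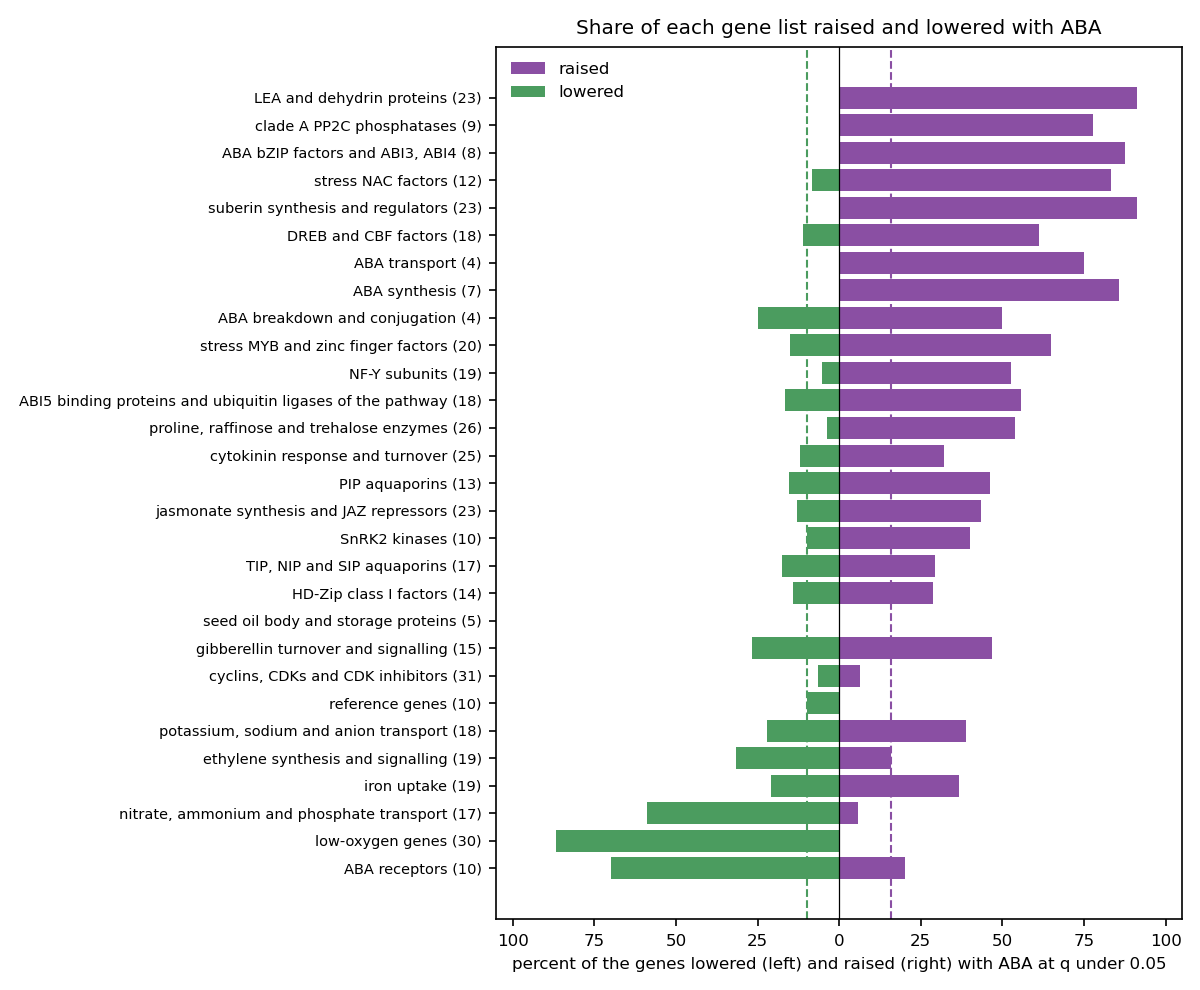
Percent of the members of each gene list that fell (left, green) and rose (right, purple) with ABA at q under 0.05, with the number of members in brackets and lists ordered by median log2 ratio. The dashed lines mark the shares over all members, 15.9% raised and 9.9% lowered. The low-oxygen list was added after the values were seen, and the other lists were chosen with earlier results of these data known.

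Suberin genes rose. Suberin is the wax-like polymer that seals the endodermis, and 21 of its 23 synthesis and regulator members rose and none fell, with a median log2 ratio of 1.75. GPAT7 and MYB107 stood under 1 FPKM untreated and so could only stand higher with ABA. MYB41, which switches suberin genes on, had 81.3 FPKM with ABA and 1.17 FPKM untreated (6.0), and KCS2, a fatty acid elongase, had 114 FPKM with ABA and 4.57 FPKM untreated (4.61). Of 13 PIP water channels 6 rose and 2 fell, led by PIP1;4 with 144 FPKM with ABA and 27.2 FPKM untreated (2.4). Of 17 TIP, NIP and SIP channels 5 rose and 3 fell. DELTA-TIP had 740.2 FPKM with ABA and 338 FPKM untreated. Of 18 potassium, sodium and anion transport genes 7 rose and 4 fell. GORK, an outward potassium channel, had 9.06 FPKM with ABA and 2.26 FPKM untreated (1.96), and the vacuolar exchanger NHX1 had 42.5 FPKM with ABA and 16.5 FPKM untreated (1.36).

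Nitrate, ammonium and phosphate genes fell more often than they rose, while over all members 15.9% rose and 9.9% fell. Of 17 nitrate, ammonium and phosphate genes 10 fell and 1 rose, with a median log2 ratio of -0.70. The phosphate transporter PHT1;1 had 16.2 FPKM with ABA and 64.2 FPKM untreated (-1.98), and PHT1;2 had 9.68 FPKM with ABA and 29.7 FPKM untreated (-1.61). The ammonium transporter AMT1;3 had 1.63 FPKM with ABA and 6.06 FPKM untreated (-1.83). The nitrate transporters NRT1.1 and NRT1.5 had 438 and 124 FPKM with ABA and 477 and 109 FPKM untreated and missed the threshold (q = 0.674 and 0.439 in the authors' deposited table). Among 19 iron uptake and storage genes 7 rose and 4 fell. NAS1, which makes an iron chelator, had 6.37 FPKM with ABA and 25.2 FPKM untreated (-1.97), the metal transporter NRAMP1 had 16 FPKM with ABA and 44.2 FPKM untreated (-1.46), and the regulator FIT1 had 3.11 FPKM with ABA and 7.75 FPKM untreated (-1.29). FER1, the iron store ferritin, rose, with 721 FPKM with ABA and 173 FPKM untreated (2.06).

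Of 31 cyclins, CDKs and CDK inhibitors, which drive or hold the cell cycle, 2 rose and 2 fell (6.45% each way, against 15.9% raised and 9.9% lowered over all members), with a median log2 ratio of 0.06. The mitotic cyclin CYCB1;1 had 7.72 FPKM with ABA and 6.93 FPKM untreated (q = 0.597 in the authors' deposited table). SMR3, a CDK inhibitor, had 55.9 FPKM with ABA and 25.1 FPKM untreated (1.15). The 2 genes that fell were CDK inhibitors too. KRP6 had 15.6 FPKM with ABA and 24.6 FPKM untreated (q = 0.000736 in the authors' deposited table). KRP4 had 17.7 FPKM with ABA and 24.1 FPKM untreated (q = 0.0286 in the authors' deposited table). CDKB1;1 had 14.5 FPKM with ABA and 10.4 FPKM untreated (q = 0.0339 in the authors' deposited table). Of 314 ribosomal protein genes 6 rose and 3 fell (1.91% raised, 0.955% lowered).

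Genes of other hormones changed in both directions, beside 15.9% raised and 9.9% lowered over all members. Of 25 cytokinin genes 8 rose and 3 fell. The cytokinin-activating enzyme LOG5 had 87.6 FPKM with ABA and 2.44 FPKM untreated (5.11), and the synthesis gene IPT3 had 1.02 FPKM with ABA and 2.81 FPKM untreated (-1.38). Of 19 ethylene genes 3 rose and 6 fell (15.8% raised, near the share over all members, and 31.6% lowered). The synthesis gene ACS7 had 44 FPKM with ABA and 8.98 FPKM untreated (2.28), while ACO1, which makes the last step to ethylene, had 82.4 FPKM with ABA and 479 FPKM untreated (-2.54). Among receptors, ETR2 had 44.2 FPKM with ABA and 114 FPKM untreated (-1.37). Of 15 gibberellin genes 7 rose and 4 fell. GA2OX6, which inactivates gibberellin, had 19.5 FPKM with ABA and 1.74 FPKM untreated (3.41), and the receptor GID1A had 19.4 FPKM with ABA and 43.9 FPKM untreated (-1.17). Of 23 jasmonate genes 10 rose and 3 fell. The repressor JAZ7 had 32.8 FPKM with ABA and 4.32 FPKM untreated (2.89), whereas JAZ8 had 5.4 FPKM with ABA and 20.5 FPKM untreated (-1.91).

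Genes known from low oxygen were among the largest falls. A list of 30 low-oxygen genes, added after the values were seen, had 26 members that fell and none that rose, with a median log2 ratio of -0.89. The lowered share was 86.7%, against 9.9% of all members. Because the list was drawn up with the values known, that share describes the list and is no test. Its genes summed to 13582 FPKM with ABA (1.18% of the summed FPKM) and 27403 FPKM untreated (2.74%). NIP2;1, a lactic acid channel of low-oxygen roots, had 84.4 FPKM with ABA and 1642 FPKM untreated (-4.28). HRE1, a low-oxygen ERF factor, had 39.7 FPKM with ABA and 595 FPKM untreated (-3.9), and HRE2 had 128 FPKM with ABA and 312 FPKM untreated (-1.29). ADH1, alcohol dehydrogenase, had 2270.1 FPKM with ABA and 4887 FPKM untreated (-1.11, q = 0.0305 in the authors' deposited table), and PDC1, pyruvate decarboxylase, had 1610.2 FPKM with ABA and 2763 FPKM untreated (-0.78, q = 0.0239). Both were among the 10 most abundant transcripts of the untreated group. The sucrose synthase SUS4 had 394 FPKM with ABA and 1295 FPKM untreated (-1.72), and SUS1 had 674 FPKM with ABA and 791 FPKM untreated (q = 0.467 in the authors' deposited table). The B12D gene AT3G29970 had 8.05 FPKM with ABA and 76.4 FPKM untreated (-3.23). PCO1 and PCO2, oxygen-sensing oxidases, had log2 ratios of -0.89 and -1.28, and the haemoglobin gene PGB1 had 577 FPKM with ABA and 938 FPKM untreated (-0.7). The alanine aminotransferase gene AlaAT1 had 251 FPKM with ABA and 662 FPKM untreated (-1.4). The 4 that missed the threshold were SRO5, HRU1, SUS1 and PP2-A11, and PP2-A11 alone stood higher with ABA (64.6 FPKM, against 49.5 FPKM untreated; q = 0.0518 in the authors' deposited table). Oxygen supply during treatment is not described in the labels, and its part in these values was not tested.

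Other large falls came from genes with less known roles. AT3G20380, a TRAF-like gene, had 9.15 FPKM with ABA and 171 FPKM untreated (-4.21). HOL2, a methyltransferase family gene, had 7.38 FPKM with ABA and 86.5 FPKM untreated (-3.53). The RING gene AT2G47560 and the hydrolase family gene AT5G06570 fell by log2 ratios of -3.45 and -3.41. MYB28, a regulator of aliphatic glucosinolate synthesis, had 1.6 FPKM with ABA and 19 FPKM untreated (-3.49).

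**Figure D5:**
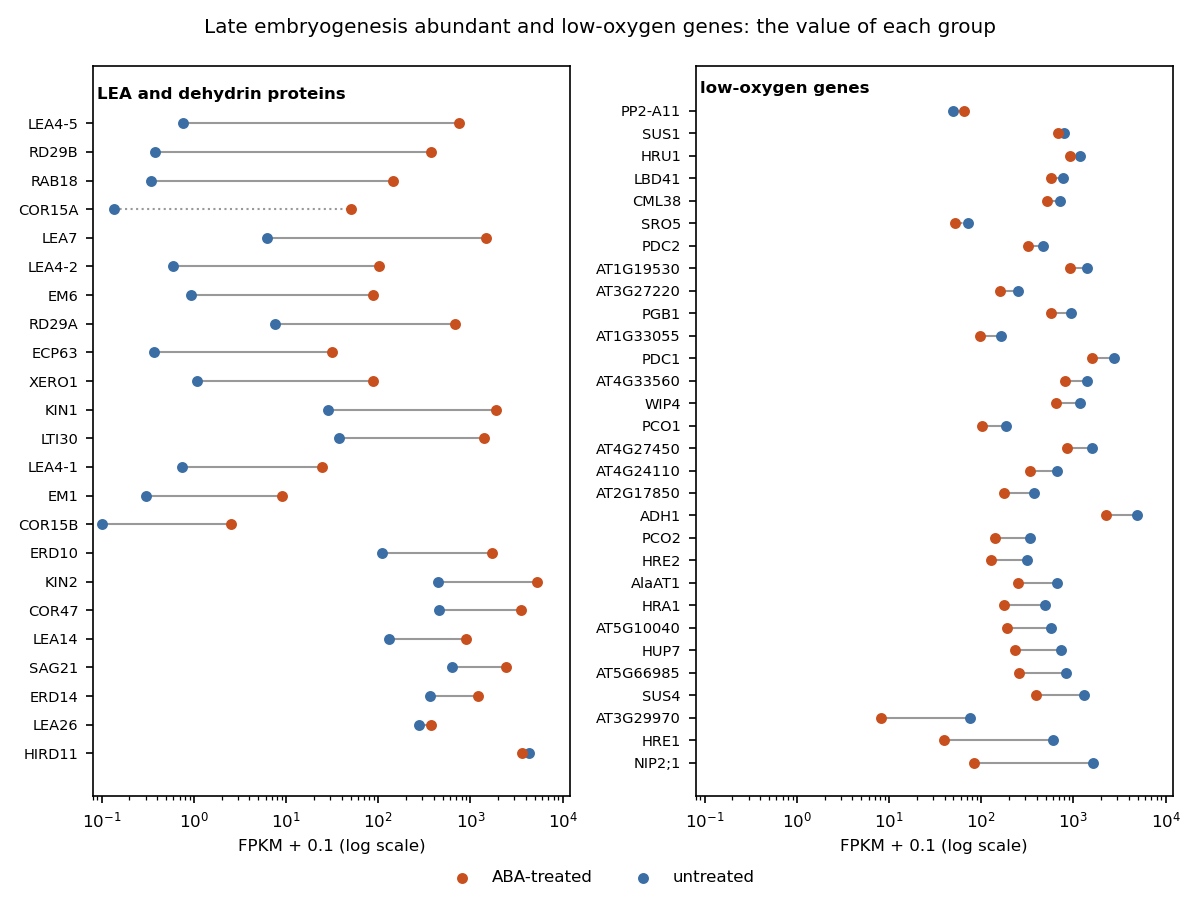
Level of each LEA and dehydrin gene (left) and low-oxygen gene (right) with ABA (orange) and untreated (blue), in FPKM + 0.1 on a log scale. Solid lines join genes past q 0.05 and dotted lines those that missed it. Of the 23 LEA and dehydrin members 21 rose, and 26 of 30 low-oxygen genes fell, a list added after the values were seen.

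Families were also taken by annotated product. Leucine-rich repeat kinases and wall enzymes fell more often than they rose. Of 129 leucine-rich repeat kinases, which sense signals at the cell surface, 45 fell and 7 rose (34.9% lowered, against 9.9% of all members), with a median log2 ratio of -0.26. AT1G05700 had 0.157 FPKM with ABA and 2.52 FPKM untreated (-3.35). Of 54 members taken as class III peroxidases by their annotation, 20 fell and 12 rose (37.0% lowered, 22.2% raised). Class III peroxidases cross-link or loosen walls, but the set also held DOX1, an alpha-dioxygenase, among the genes that rose. Prx37 had 56.3 FPKM with ABA and 319 FPKM untreated (-2.5). Of 109 pectin enzymes 26 fell and 17 rose (23.9% lowered, and 15.6% raised, near the 15.9% over all members). Pectin is the gel of the wall, and its enzymes set how stiff it is.

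Lipid transfer proteins, glutathione transferases and UDP-glycosyltransferases held a larger share of raised genes than all members, of which 15.9% rose and 9.9% fell; no test of the difference was made. Of the lipid transfer proteins, which carry lipids to the wall, 26 of 58 rose and 5 fell, and AT2G37870 had 355 FPKM with ABA and 10.7 FPKM untreated (5.04). Of 49 glutathione transferases, which detoxify reactive compounds, 22 rose and 4 fell, with GSTU18 at 18.1 FPKM with ABA and 2.16 FPKM untreated (3.01). Of 95 UDP-glycosyltransferases, which join sugars to hormones and metabolites, 36 rose and 13 fell. UGT75B1 had 12 FPKM with ABA and 0.467 FPKM untreated (4.42). Of 128 cytochromes P450 45 rose and 32 fell, so both shares (35.2% raised, 25% lowered) were above those of all members. Of 118 heat shock proteins and factors 31 rose and 4 fell (26.3% raised, 3.39% lowered). That family also held a large fall, AT4G21870, with 0.631 FPKM with ABA and 10.3 FPKM untreated (-3.83). Of 34 MATE efflux proteins, a family added after the values were seen, 14 rose and 2 fell.

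The remaining families are given beside the shares over all members, 15.9% raised and 9.9% lowered, with no test of the difference. Of 62 NAC factors 30 rose and 6 fell (48.4% raised), 19 of 51 WRKY members rose and 9 fell, and 37 of 103 MYB members rose and 9 fell. WRKY24 had 22.1 FPKM with ABA and 2.62 FPKM untreated (3.03), and MYB49 had 71.5 FPKM with ABA and 3.13 FPKM untreated (4.47). Of 83 bHLH factors 14 rose and 13 fell, a raised share of 16.9%, near that of all members, with FBH3 at 131 FPKM with ABA and 8.19 FPKM untreated (3.98). Of 71 AP2/ERF factors 20 rose and 14 fell. ORA59, a factor of ethylene and jasmonate defence, had 1.88 FPKM with ABA and 11.5 FPKM untreated (-2.55). Of 146 F-box members, from 628 listed, 13 rose and 17 fell, and of 215 RING and U-box members, also added after the values were seen, 32 rose and 28 fell (14.9% raised, 13.0% lowered). The extensin gene AT1G26250 had 92.7 FPKM with ABA and 387 FPKM untreated (-2.06), in a family of extensins and arabinogalactan proteins where 19 of 78 rose and 11 fell. 

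Genes raised at least 4-fold had shorter proteins than genes that missed the threshold and lay next to each other more often than other members lay next to one, which is given as a description with no test. Their median protein length was 317 residues, against 372 residues for genes that missed the threshold, and 23.1% had a single exon, against 12.8%. Short proteins were not particular to them: the median was 315 residues for genes raised 2- to 4-fold and 346 residues for genes lowered at least 4-fold, and of the last 33.1% had a single exon. Of the 546 raised at least 4-fold that RefSeq orders on a chromosome, 87 (15.9%) were next to another such gene, and 5.45% of 18145 other members were next to one. The 45 pairs include RD29A with RD29B, LTI30 with XERO1, KIN1 with KIN2 and COR47 with ERD10. XERO1 had 87.7 FPKM with ABA and 0.988 FPKM untreated (6.33). The sources used here do not say whether counting used strand, so overlapping neighbours may share reads.

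Some of the widest ratios missed the threshold. With a log2 ratio of at least 6 in size, 43 members did: 27 higher and 16 lower with ABA. The untreated values of the 27 were listed at 0 for 12 genes and were 0.0187 to 0.543 FPKM for the other 15. COR15A, a chloroplast-protecting cold gene, had 50.9 FPKM with ABA and 0.0373 FPKM untreated (q = 0.475 in the authors' deposited table). The LEA gene AT3G15670 had 105 FPKM with ABA and 0.0919 FPKM untreated (q = 0.0808 in the authors' deposited table). DMP1 had 184 FPKM with ABA and 0.543 FPKM untreated (q = 0.0815 in the authors' deposited table). All 16 lower ones were listed at 0 with ABA, and 7 of them were miRNA or snoRNA genes. MIR397b, for example, was listed at 0 with ABA and had 216 FPKM untreated (q = 0.138 in the authors' deposited table).

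The same genes can be set beside the mutant bin2-1, whose hyperactive BIN2 kinase represses brassinosteroid signalling, in its own table. Both comparisons use the same untreated libraries, so their changes are not independent, and untreated values in the ABA table are 0.938 times those in the bin2-1 table (median). LEA7 had 1.09 FPKM in bin2-1 and 6.53 FPKM untreated, and LTI30 had 189 FPKM in bin2-1 and 40.1 FPKM untreated. Of the phosphatases, HAI1 had 1.57 FPKM in bin2-1 and 0.910 FPKM untreated, and ABI1 had 52.5 FPKM in bin2-1 and 16.6 FPKM untreated. NIP2;1 had 13.5 FPKM in bin2-1 and 1750.4 FPKM untreated, HRE1 had 41.1 FPKM in bin2-1 and 634 FPKM untreated, and PYL5 had 56.3 FPKM in bin2-1 and 257 FPKM untreated. OST1 had 8.92 FPKM in bin2-1 and 56.8 FPKM untreated.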

How the data were processed

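The submitters' processing notes name TopHat, Cufflinks and the TAIR10 build. The sources used here give no version or setting and do not name the test. The authors deposited 1 FPKM value per group, read as FPKM because Cufflinks is named, and a p-value and q-value per gene. The smallest p is 5e-05. Depth is unknown, so no interval or floor is given. No count test or fit per library was possible. FPKM sums were 1148755 with ABA and 1001422 untreated.

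Log2 ratios were computed with Python 3.11.15, numpy 2.4.6, pandas 2.3.3 and scipy 1.17.1, with a pseudocount of 0.1 FPKM, and the ratio and count steps were tested on simulated data. Gene names, starts and sequences come from RefSeq's TAIR10.1, which held 18691 of the 18841 members; the files hold no coordinates. The 37 lists (588 loci, 1 symbol unmatched) and the members were chosen with earlier results of these data known, and low-oxygen genes and 2 of 21 families after the values were seen. The genes named are the 10 largest rises and falls with at least 5 FPKM in both groups, the 5 largest gains and losses, up to 4 per list and 2 per family with the largest change, the core lists, and members with a log2 ratio of at least 6 in size that missed the threshold; others were named after their values were seen. The planned residue composition of proteins was not analysed here, only protein lengths.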

Additional observations from a re-analysis of the deposited data

How the results depend on the processing

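The counts of raised and lowered genes kept within 1.5 times of 2992 and 1859 under a q of 0.01 (2346 and 1301), no filter, at least 1 FPKM in both groups, at least 5 FPKM in either, and an adjustment recomputed over the members. The counts at 2-fold, 1678 higher and 711 lower at any q, were 1372 and 499 with a pseudocount of 1 FPKM, 1725 and 742 with 0.01 FPKM, 1667 and 723 after centring on the median, and 1241 and 484 at 1 FPKM in both groups. A pseudocount cannot change the sign of a log2 ratio, and centring subtracted only 0.0075 from each. That no called gene among the 238 named members reversed sign was therefore set in advance or nearly so, and is no support. Of 456 list counts and medians recomputed, 31 moved by more than 1.5 times or 0.2 on the log2 scale.

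The share of promoters of genes raised at least 4-fold with the element was 28.7%. It was 54.6% with the core ACGTG, 24.2% before the gene start only, 28.7% with CACGTG and 12.2% with ACCGAC, the last 2 chosen after seeing the data. Without the 10 most abundant genes of either group, the shares of summed FPKM were 23.5% with ABA and 11.4% untreated for raised genes. Leaving out each library in turn and the replicate block were not run. No paired analysis was possible because the table gives 1 value per group. Depth and spread between libraries limit every value and are unknown here.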
